A study of Rattus norvegicus with 4 samples.

Results

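The collagen genes are described here in liver of WNIN/Ob rats, a strain with a lean and an obese phenotype. Members were all genes whose probe set carried a single gene symbol made of Col, a number, the letter a and a number, and 25 of the 14506 genes measured fitted that rule. The lean pool combined liver RNA of 4 untreated male rats of the lean phenotype, and the obese pool combined liver RNA of 4 untreated male rats of the obese phenotype, all of the same strain, 4 months old and fed stock diet. Each pool was hybridised to 2 Affymetrix Rat Gene ST arrays, labelled original and technical replicate, so each phenotype is 1 sample, animals cannot be tested against each other and no p-value is given. RNA was extracted from whole liver, and in such a sample fewer cells of a type and less RNA per cell cannot be told apart.

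Collagens are matrix proteins whose chains wind around each other into a triple helix built on repeats of glycine with other residues, many of them proline. Fibril-forming collagens (types I, II, III, V, XI, XXIV and XXVII) make banded fibrils, type IV forms the mesh of basement membranes, and fibril-associated collagens (FACIT) decorate the fibrils. In liver, types I and III lie in portal tracts and around central veins and accumulate as scar in fibrosis, with activated stellate cells and portal fibroblasts as their best known source. Skeletal muscle also holds type I, III, IV and VI collagen in the connective tissue around its fibres.

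Values are log2 intensities, and a difference is the obese mean minus the lean mean, given with its lowest and highest value over the 4 possible pairings of lean with obese arrays. A gene counted as 1.5-fold lower or higher when its pool means were that far apart, at least 0.25 separated the closest arrays of the 2 pools and the brighter pool reached 5.48, the median of all genes. Of the 25 collagen genes 12 reached that level in the brighter pool and 13 did not, compared with 52.1% of all genes. Brightness depends on the probes, so levels of different collagen genes are not set against each other. RefSeq's gene table for assembly GRCr8 names 44 collagen genes, and the 19 of them outside the rule, among them Col4a2, Col6a1 to Col6a3, Col15a1 and Col18a1, were not analysed here.

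In the obese pool type I collagen stood apart from the rest of the family. Col1a1, which encodes its alpha-1 chain, was 1.96-fold lower, and Col1a2, the alpha-2 chain of the same protein, was 1.45-fold lower. The pool means of the other 23 genes differed by 0.30 or less in either direction. Of the 25 genes 17 lay within 0.1 of 0, as did 38.2% of all genes. A mean near 0 can hide opposite signs. Of the 25, 18 were below 0 on the original and above 0 on the technical replicate arrays, as were 21.2% of all genes. Col7a1 differed by -0.46 on the original and 0.41 on the technical replicate arrays, and Col9a2 by -0.66 and 0.13. The median difference was -0.01 over the collagen genes and 0.03 over all genes.

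By the 1.5-fold rule Col1a1 was the 1 collagen gene lower in the obese pool, where 2.43% of all genes were lower, and 0 collagen genes were higher, where 2.19% of all genes were. No collagen gene was 2-fold lower (1.48% of all genes were) or 2-fold higher (0.572%). A count of 1 gene in 25 lies close to that background, so it says little of the family as a whole. Over all genes 352 were 1.5-fold lower and 317 higher, and after cyclic loess normalisation 400 were lower and 227 higher. The count of higher genes was 553 without the obese technical replicate array.

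**Figure D1:**
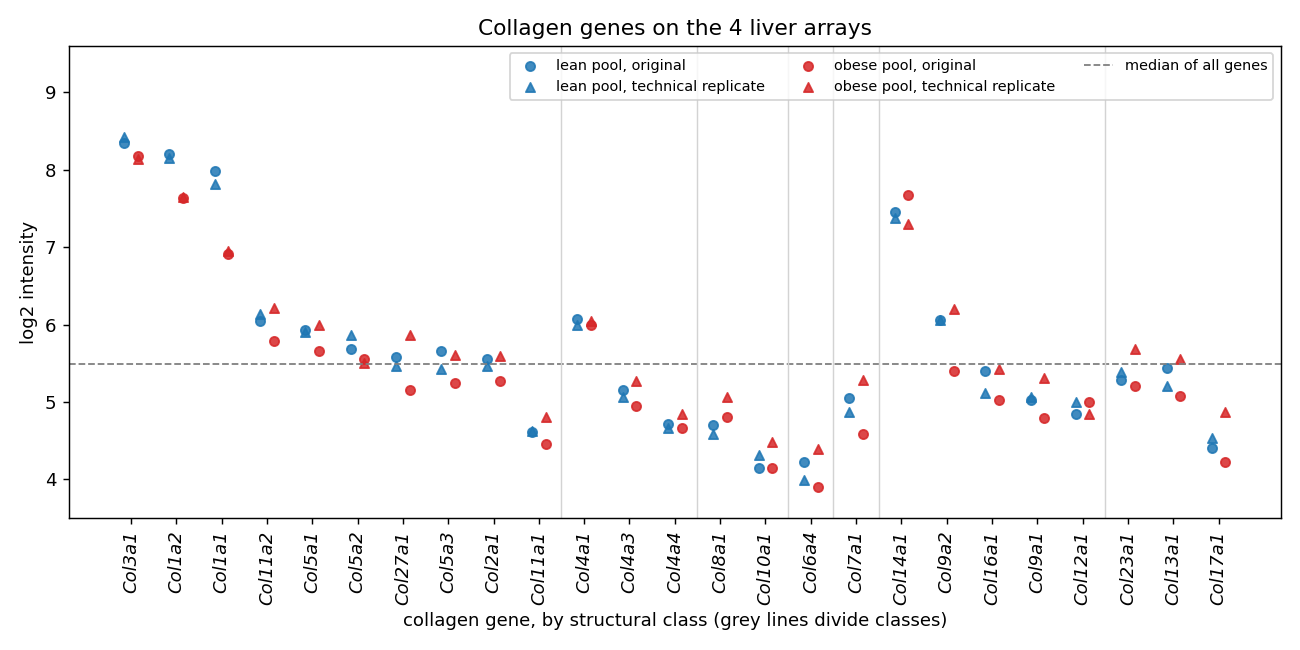
Log2 intensity (vertical axis) of the 25 collagen genes (horizontal axis, grouped by structural class and ordered by mean within a class) on the 4 arrays, with lean arrays in blue, obese arrays in red, original arrays as circles and technical replicate arrays as triangles. Both red points lie below both blue points for Col3a1, Col1a2, Col1a1 and Col5a2, and the dashed line is the median of all genes, 5.48.

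Type I collagen is the main fibre of scar, tendon, skin and bone. Col1a1 stood at 7.98 on the original and 7.82 on the technical replicate array of the lean pool, and at 6.91 and 6.95 on those of the obese pool. Both obese arrays lay well below both lean arrays, by 0.87 at the nearest, and the difference of -0.97 ran from -1.08 to -0.87 over the pairs. Of all 14506 genes, 265 had a larger decrease.

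Col1a2 stood at 8.20 and 8.15 on the lean arrays and at 7.64 and 7.65 on the obese arrays. Its difference of -0.54 (-0.57 to -0.50) fell short of the 1.5-fold rule, which asks for 0.585, although the pools lay 0.50 apart at the nearest. It passed the rule after cyclic loess or quantile normalisation between the arrays. The ranges of the chains did not overlap, so on these arrays the difference of Col1a1 was the larger.

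RefSeq's promoter table for assembly GRCr8 held 20 of the 25 genes, without Col1a1, Col2a1, Col3a1, Col12a1 and Col14a1. The stretch of Col1a2 is shown because its pools were the farthest apart among the genes in that table. It covers the first 100 bases of the table's window, which begins 250 bases before the annotated start, on the plus strand at chr4:33518307-33518406, with motif matches in capitals.

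Col1a2: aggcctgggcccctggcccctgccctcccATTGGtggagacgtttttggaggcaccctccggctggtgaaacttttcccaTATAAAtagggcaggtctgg

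The capitals mark ATTGG, the reverse complement of CCAAT, 221 bases before the annotated start, and TATAAA, 170 bases before it. The bases before the start were searched on both strands for these motifs and for the GC box GGGCGG, and the matches shown do not overlap. TATAAA was found in 4 of the 20 collagen windows (Col1a2, Col10a1, Col13a1 and Col17a1), or 20%, and in 12.9% of all 33469 windows. CCAAT was found in 7 of 20 (35%, all windows 34%) and GGGCGG in 11 of 20 (55%, all windows 30.5%). Col1a2 held TATAAA and CCAAT but not GGGCGG, while Col4a1, whose pools were nearly equal, held CCAAT and GGGCGG but not TATAAA. These matches describe letters and were not tested against the differences.

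Type III collagen forms thin fibrils that are often mixed with type I. Col3a1 stood at 8.35 and 8.42 on the lean arrays and at 8.18 and 8.14 on the obese arrays. The pools did not overlap, but the difference of -0.22 (-0.28 to -0.17) was small, and 1775 genes had a larger decrease. Type V collagen sits inside type I fibrils and helps to set their diameter. Its chain Col5a2 stood at 5.68 and 5.87 on the lean arrays and at 5.55 and 5.50 on the obese arrays. That is a difference of -0.25 (-0.37 to -0.12) with no overlap, near the median of all genes in brightness. In RefSeq's gene order Col3a1 and Col5a2 are neighbours, with no other protein-coding gene between them.

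The pools overlapped for the partner chain Col5a1, whose range over the pairs also overlapped that of Col5a2. It stood at 5.93 and 5.91 on the lean arrays and at 5.66 and 5.99 on the obese arrays, and its difference was -0.09 (-0.27 to 0.08). Type XI collagen is best known from cartilage. Col11a2 stood at 6.05 and 6.14 on the lean arrays and at 5.79 and 6.22 on the obese arrays, a difference of -0.09. Col11a1, below the level filter, stood at 4.61 and 4.62 and at 4.45 and 4.80. Both chains had their lowest value on the obese original array and their highest on the obese technical replicate array. Col27a1 and the cartilage gene Col2a1 showed the same arrangement, with differences of -0.02 and -0.09. Col5a3 was likewise lowest on the obese original array, with a difference of -0.11.

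Of the 10 fibril-forming genes 9 had differences below 0 (43.1% of all genes did), with a median of -0.10, and 1 passed the 1.5-fold rule. That direction depended on the arrays. On the original arrays alone all 10 were below 0, with a median of -0.28, as were 6524 of all 14506 genes. On the technical replicate arrays alone 4 of the 10 were, with a median of 0.08, as were 6425 of all genes. Those 4 were Col1a1, Col1a2, Col3a1 and Col5a2.

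**Figure D2:**
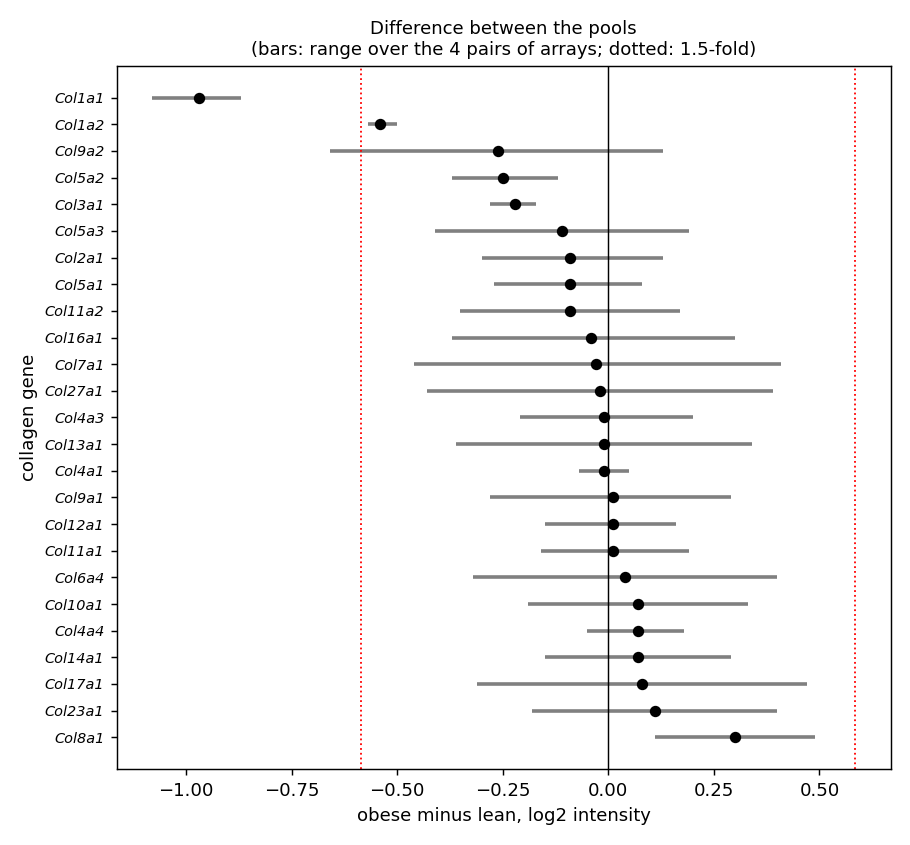
Difference between the pools (obese minus lean, log2 intensity, horizontal axis) for the 25 collagen genes (vertical axis, ordered by difference). Points are differences of pool means, bars run over the 4 pairs of arrays, and dotted lines mark 1.5-fold; the bar of Col1a1 (-1.08 to -0.87) is the only one that lies wholly past a line, and the bars of 20 genes cross 0.

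Type IV collagen, the scaffold of basement membranes, was close to equal in both pools. Col4a1 stood at 6.07 and 6.0 on the lean arrays and at 5.99 and 6.05 on the obese arrays, a difference of -0.01 (-0.07 to 0.05). Its 4 values lay closer together than those of any other collagen gene above the level filter. Col4a3 and Col4a4, chains of the kidney glomerular basement membrane that are neighbours in RefSeq's gene order, both lay below the level filter. Their differences were -0.01 (-0.21 to 0.20) and 0.07 (-0.05 to 0.18).

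Among the fibril-associated collagens, 0 of 5 passed the rule and the median difference was 0.01. Col14a1, a marker of fibroblasts and mature collagen bundles, was bright on every array. It stood at 7.45 and 7.38 on the lean arrays and at 7.67 and 7.30 on the obese arrays, where the obese original array was the highest and the obese technical replicate array the lowest. Its difference was 0.07 (-0.15 to 0.29), and its pools overlapped. Thus Col14a1 did not share the gap that Col1a1 showed.

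Col9a2, a chain of cartilage type IX collagen, had a difference of -0.26, the next largest decrease after type I collagen, but it rested on 1 array. It stood at 6.06 on both lean arrays, at 5.40 on the obese original array and at 6.20 on the obese technical replicate array. Without the obese technical replicate array Col9a2 passed the 1.5-fold rule, so that 2 collagen genes did, and on the technical replicate arrays alone its difference was 0.13. The other measured chain of type IX, Col9a1, stood at 5.02 and 5.06 on the lean arrays and at 4.79 and 5.31 on the obese arrays. Col16a1 and Col12a1, also FACIT collagens, lay below the level filter with differences of -0.04 and 0.01.

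The remaining collagens were dim, and none of them reached the level filter. Col8a1, a short-chain collagen made by vascular cells, stood at 4.70 and 4.58 on the lean arrays and at 4.81 and 5.07 on the obese arrays. It was the only collagen gene with both obese arrays above both lean arrays, at a difference of 0.30 (0.11 to 0.49), below the fold of the rule and below the level at which a signal was counted. Its relative Col10a1, a marker of hypertrophic cartilage, had a difference of 0.07.

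Col7a1, the anchoring fibril of skin, stood at 5.05 and 4.87 on the lean arrays and at 4.59 and 5.28 on the obese arrays. The transmembrane collagen Col23a1 stood at 5.28 and 5.39 and at 5.21 and 5.68. In both genes the obese arrays lay on either side of the lean arrays. The transmembrane collagens Col13a1 and Col17a1, an adhesion protein of epithelial cells, had differences of -0.01 and 0.08. Col6a4, a chain related to type VI collagen, was the only member with more than 1 probe set. The brightest of its probe sets stood at 4.22 and 3.99 on the lean arrays and at 3.90 and 4.39 on the obese arrays, and the differences of all its probe sets were -0.02, 0.09 and 0.04.

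Across the family the obese arrays differed from each other mostly in one direction. The obese technical replicate array read above the obese original array for 21 of 25 collagen genes, with a median of 0.34, compared with 43.5% of all genes and a median of -0.04. Brightness is not the same in these sets. Of the 3117 genes whose mean level lay between that of the dimmest collagen gene and the level filter, 63.3% read higher on the obese technical replicate array, with a median of 0.11. Of the 14 collagen genes with a mean level in that range 13 did, with a median of 0.37. In the lean pool the technical replicate array read above the original for 9 of 25 collagen genes, with a median of -0.05. Over all genes it did so for 50.4%, with a median of 0.00.

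The sign of most collagen differences therefore turned with the pair of arrays compared. On the original arrays 22 of 25 were below 0 (6524 of all 14506 genes were), with a median of -0.23. On the technical replicate arrays 19 of 25 were above 0 (8041 of all genes were), with a median of 0.18. The median of all genes was 0.03 on both. Of the 25 genes 18 were below 0 on the original and above 0 on the technical replicate arrays, as were 21.2% of all genes. Col1a1, Col1a2, Col3a1 and Col5a2 were below 0 on both (23.6% of all genes were), Col8a1 was above 0 on both (34.0%), and Col12a1 and Col14a1 were above 0 on the original arrays only.

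Those groups largely repeat the overlap of the pools, because pools that do not overlap must give the same sign on both pairs of arrays. Both obese arrays lay below both lean arrays for 4 collagen genes (18.5% of all genes did) and above them for 1 (27.5% of all genes did), and the pools overlapped for 20 (54% of all genes). Type I collagen was the part of the family in which the gap between the pools exceeded the spread between arrays by a wide margin. The differences on the original and the technical replicate arrays were -1.08 and -0.87 for Col1a1 and -0.57 and -0.50 for Col1a2.

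**Figure D3:**
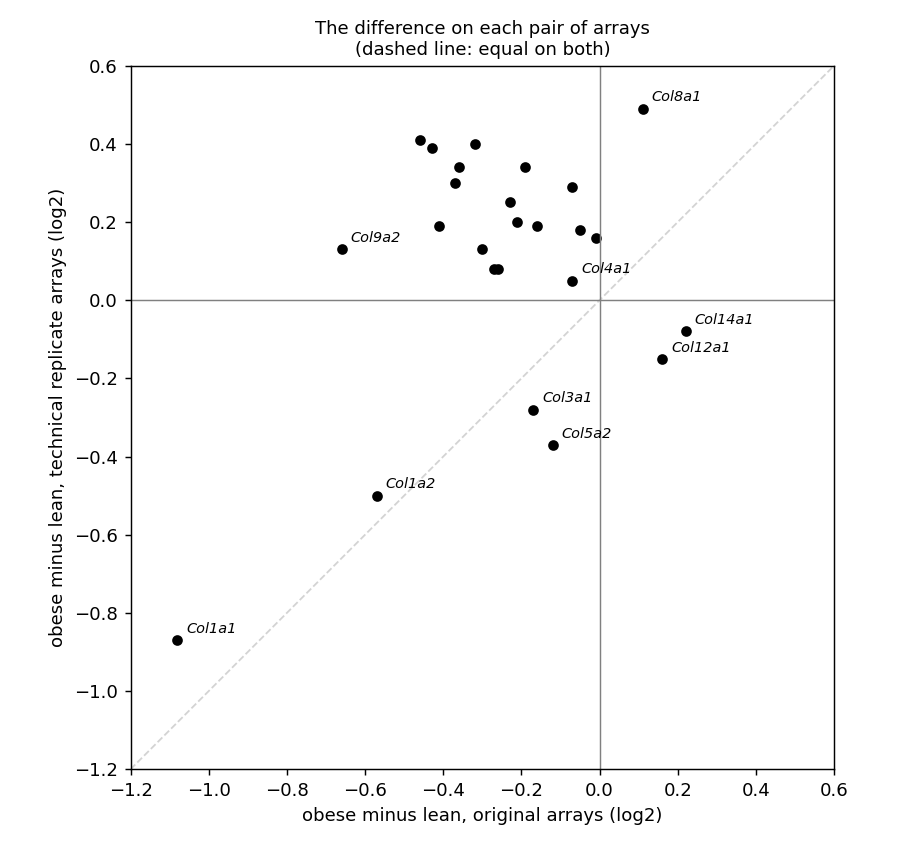
Difference between the pools (obese minus lean, log2) on the original arrays (horizontal axis) against the same on the technical replicate arrays (vertical axis), 1 point per collagen gene. The 18 points in the upper left were below 0 on the original and above 0 on the technical replicate arrays, while Col1a1, Col1a2, Col3a1 and Col5a2 lie in the lower left.

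Collagen chains are hydroxylated and glycosylated in the endoplasmic reticulum, folded with the help of chaperones, exported, trimmed by proteases and cross-linked. Of 14 measured hydroxylases, glycosyltransferases and their partners 0 passed the 1.5-fold rule in either direction, and their median was 0.08. P4hb, the beta subunit of prolyl 4-hydroxylase and the brightest of them, stood at 10.98 and 11.09 on the lean arrays and at 11.44 and 11.38 on the obese arrays. Its arrays did not overlap between pools, and its difference of 0.37 (0.29 to 0.46) was opposite in sign to that of type I collagen. Of 11 genes of folding and export 0 passed, with a median of 0.06. The brightest was Hspa5, a general chaperone of the endoplasmic reticulum, with a difference of 0.22 (0.13 to 0.31). The collagen-specific chaperone Serpinh1, picked with its value known, had a difference of -0.27 (-0.42 to -0.12). Without the obese technical replicate array 1 gene of that list was higher.

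Lox, the lysyl oxidase that starts cross-linking of collagen fibrils, was the 1 of 12 genes of processing and cross-linking that passed, in the lower direction. It stood at 7.22 and 7.26 on the lean arrays and at 6.67 and 6.21 on the obese arrays. The pools did not overlap, the obese arrays differed from each other by nearly as much as the nearest arrays of the pools, and Lox was 1.74-fold lower (1.47 to 2.07). It did not pass when the obese technical replicate array was dropped or on the original arrays alone. The list had a median of 0.01.

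Of 10 collagen receptors 0 passed, with a median of -0.03, and only 3 of them reached the level filter. The brightest, the endocytic receptor Lrp1, had a difference of -0.19 (-0.26 to -0.12). Ddr2, a receptor kinase for fibrillar collagen, was chosen after its values were seen. It stood at 5.27 on both lean arrays and at 4.77 and 4.44 on the obese arrays. Its difference of -0.66 is larger than 1.5-fold, but it lay below the level filter in both pools. Of 17 collagen-degrading proteases and inhibitors 0 passed, and 8 reached the level filter. Their median was -0.04, and 11 had differences below 0 (43.1% of all genes did). After cyclic loess or quantile normalisation 1 of the list was lower. The count was also 1 when the lean original or the obese technical replicate array was left out. The brightest member of that list, the dipeptidase Pepd, which recycles proline from collagen fragments, had a difference of 0.22 (0.14 to 0.29). Mmp2, which reached the level filter and was chosen after its values were seen, had a difference of -0.55 (-0.66 to -0.44). Its pools did not overlap, but it fell short of the 1.5-fold rule.

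Among 11 basement membrane partners of type IV collagen 1 was lower and 0 higher, with a median of 0.02. That gene was Lamb2, the laminin beta-2 chain, which is known from vessels and the neuromuscular junction. It stood at 6.31 and 6.40 on the lean arrays and at 5.74 on both obese arrays, so the pools were clearly apart, and it was 1.53-fold lower (1.48 to 1.59). It did not pass without the lean technical replicate array or on the original arrays alone. Over the 11 alternative settings described below its difference ran from -0.67 to -0.50. Of 15 genes of the TGF-beta and CTGF axis, which drives collagen transcription in fibrosis, 0 passed and the median was 0.00. On the technical replicate arrays alone, or without the lean original array, 1 was lower. The brightest, the co-receptor Eng, had a difference of -0.34 (-0.38 to -0.30).

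**Figure D4:**
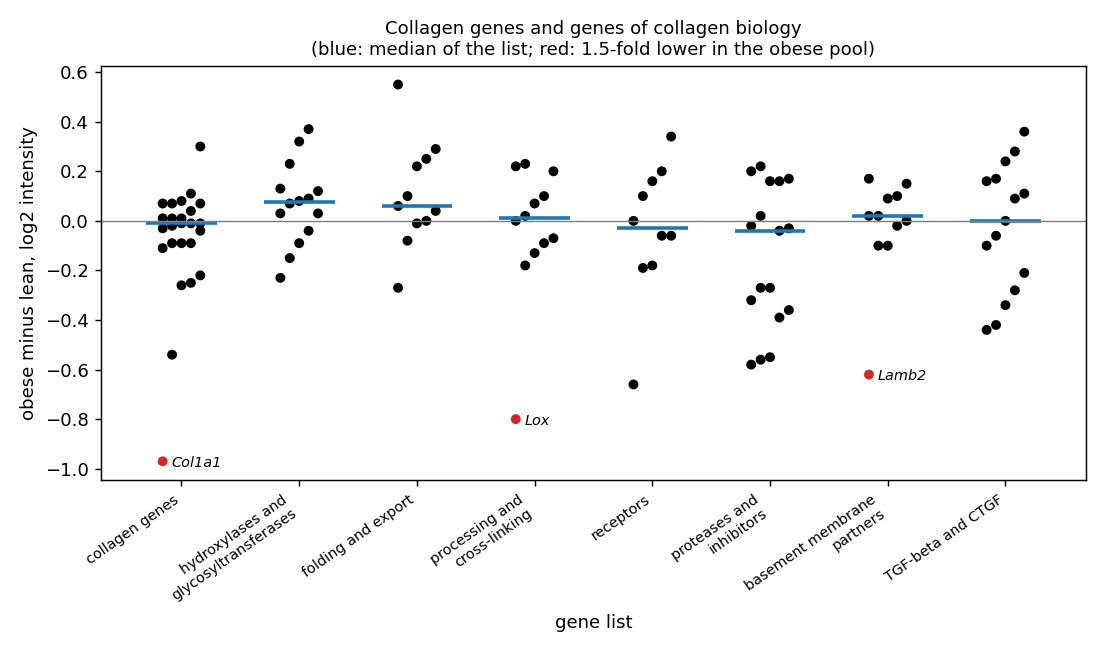
Difference between the pools (obese minus lean, log2 intensity, vertical axis) for the collagen genes and for 7 lists of genes of collagen biology (horizontal axis), 1 point per gene, with the median of each list as a blue line. Medians lie between -0.04 and 0.08, and the red points, Col1a1, Lox and Lamb2, are the genes 1.5-fold lower in the obese pool.

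Transcripts of other cell types differed between the pools beside type I collagen. All 14 measured skeletal muscle markers were lower in the obese pool, and their levels ran from 8.02 to 13.12 on the lean arrays and from 3.76 to 6.89 on the obese arrays. Their summed intensity was 33427 and 34718 on the lean arrays and 496 and 515 on the obese arrays. Acta1, the actin of skeletal muscle, measured 13.10 ± 0.02 on the lean and 6.88 ± 0.02 on the obese arrays (SD, n = 2 arrays of 1 pool). The lean pool thus carried muscle transcripts at far higher intensity, and their part in the type I collagen difference was not tested.

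Of 13 stellate cell markers 2 were lower and 0 higher, with a median of -0.12, and their summed intensity was 2106 and 2226 on the lean and 1232 and 1109 on the obese arrays. Those 2 were Des (desmin), which muscle also expresses, with a difference of -4.05, and the matrix proteoglycan Dcn (decorin). Des stood at 9.12 and 9.38 on the lean and 5.04 and 5.34 on the obese arrays. Dcn stood at 8.38 and 8.47 on the lean and 6.79 and 6.26 on the obese arrays. Both were the brightest of the list on the lean arrays. The lower sum rests largely on them and does not describe the list as a whole. Of the 13 markers 9 had differences below 0 (43.1% of all genes did). Vim and Rgs5 reached the level filter, and their pools did not overlap. Their differences were -0.46 (-0.49 to -0.43) and -0.38 (-0.54 to -0.21). The more restricted markers Lrat, which stores retinol as ester, and Reln had differences of -0.34 (-0.65 to -0.02) and -0.03 (-0.23 to 0.17). Vim, Rgs5, Lrat and Reln were chosen after their values were seen. The activation marker Acta2, which was counted in the smooth muscle list and not in this one, was also chosen so. Acta2 stood at 8.19 and 8.22 on the lean and 8.14 and 8.26 on the obese arrays, with overlapping pools. Whole liver RNA does not tell which cells its signal came from.

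Of 8 markers of tendon and muscle connective tissue 0 passed in either direction, with a median of -0.11, but 7 of them lay below the level filter. Of the 8, 4 had differences below 0 (43.1% of all genes did). Scx, Comp and Cilp, all below the level filter, had differences of 0.03, 0.10 and 0.20. Among the 7 below the filter, Kera (keratocan), Fmod (fibromodulin) and Pi16 were apart by more than the fold of the rule. Kera and Fmod are proteoglycans that bind collagen fibrils, and Pi16 is a fibroblast marker. Kera stood at 3.90 and 4.12 on the lean and 2.70 and 2.60 on the obese arrays, Fmod at 4.74 and 4.81 and at 3.44 and 3.79. Both were lower on both obese arrays, with differences of -1.35 and -1.16, and that of Pi16 was -0.61; levels this dim give no firm fold. In the stellate list the proteoglycan Lum (lumican), also below the level filter, stood at 4.43 and 4.51 on the lean and 2.45 and 2.28 on the obese arrays, a difference of -2.11. Kera, Fmod, Pi16, Lum, Scx, Comp, Cilp and Dpt were chosen after their values were seen. The summed intensity of the connective tissue list, 2041 and 1957 on the lean and 2699 and 2617 on the obese arrays, was almost all Dpt (dermatopontin), whose difference was 0.46 (0.39 to 0.53). Without Dpt the sum over the remaining 7 was 154 and 165 on the lean and 115 and 139 on the obese arrays. Of 7 smooth muscle markers 1, Myh11, was lower, at a difference of -0.67 (-0.94 to -0.39). It did not pass without the obese original array or on the technical replicate arrays alone. All 7 had differences below 0, with a median of -0.07. In the endothelial, bile duct, macrophage, adipocyte and mesothelial lists 0 genes passed, with medians of -0.11, 0.03, -0.24, -0.31 and 0.05. Differences were below 0 for all 6 endothelial and all 8 macrophage markers, against 43.1% of all genes. They were below 0 for 2 of 5 bile duct, 4 of 6 adipocyte and 1 of 3 mesothelial markers. Leaving out the obese original array made 1 endothelial gene lower. But 0 of 5 bile duct, 0 of 3 mesothelial and 1 of 6 adipocyte markers reached the level filter, so the rule could not call the others. The 1 adipocyte marker that did, Cidec, named with its value known, had a difference of 0.53. All 10 hepatocyte markers were bright, from 12.21 to 13.77, in both pools, as the label liver implies, and Alb (albumin) stood at 13.67 ± 0.07 and 13.74 ± 0.03. The part of these markers in the collagen values was not tested either.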

How the data were processed

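Liver RNA of 1 lean and 1 obese pool, each of 4 animals, was measured on 4 arrays, 2 a pool, after amplification of 100 ng of each pool, per the labels' protocols. The deposited table gives the intensity of each probe set, which the authors computed with RMA (background correction, normalisation between arrays and a summary per probe set), per the submitters' processing notes. The table is not in log units, as its lowest value was 2.31, its highest 14288 and the array medians 25.7 to 27.7. Software version, genome build and the conversion out of log units are not given in the sources used here.

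Here log2 was taken with no further normalisation. Of 29214 probe sets 15310 carried 1 platform symbol, 323 several and 13581 none, and the brightest probe set by mean over the arrays stood for a gene. All 27 collagen probe sets had the same symbol in RefSeq's GRCr8 table by gene identifier, which served for names and gene order only. Named genes were collagens past the 1.5-fold rule, the brightest of each class, chains of known heterotrimers, and up to 4 passing members or else the brightest of each list. The members and lists were chosen with earlier results of these data known. The number of arrays limits precision. Python 3.11.15, pandas 2.3.3, R 4.3.3 and limma 3.58.1 (cyclic loess and quantile alternatives) were used. Detection calls were not used, so no gene is known to be above background.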

Additional observations from a re-analysis of the deposited data

How the results depend on the processing

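Each value was recomputed with each array left out, on the original or the technical replicate arrays alone, with cyclic loess, quantile normalisation or median centring, with an offset of 16 before log2, with no or a stricter level filter (7.09), with the mean of all probe sets of a gene and with no gap asked for. Col1a1 was 1.5-fold lower under each of these. The number of collagen genes 1.5-fold lower was 1 to 2 when an array was left out, and 2 on the original arrays alone, with cyclic loess and with quantile normalisation. The second gene was Col9a2 where the obese technical replicate array took no part, and Col1a2 with cyclic loess and quantile normalisation. The count of higher collagen genes was 0 throughout. The median difference of the collagen genes ran from -0.23 to 0.16 when an array was left out and was -0.23 on the original arrays alone. It was -0.38 over the collagen genes that reached the stricter level filter, which were only Col1a1, Col1a2, Col3a1 and Col14a1. Over all genes, the count of 1.5-fold higher genes was 258 to 553 when an array was left out, 615 on the original arrays alone and 195 with the stricter filter, which left 188 lower. Over the 11 alternatives that give a difference per gene, 4 collagen genes (Col1a1, Col1a2, Col3a1 and Col5a2) stayed below 0, 1 (Col8a1) stayed above 0 and 20 took both signs. Leaving out arrays cannot turn the sign of a gene whose pools do not overlap, so this split largely repeats the overlap of the pools. Of 275 recomputed collagen differences 239 moved by less than the standard deviation over the array pairs and 36 by more. Leaving out 1 array always moves a difference by less than that, and genes with 1 probe set keep their value under the mean of probe sets. Those recomputations could not count as moved, so the 239 are no measure of stability. Without detection calls signal over background was not judged, and 13 of the 25 collagen genes lay under the level filter. The cause of these changes was not tested. The labels do not say whether the 2 original arrays, or the 2 technical replicate arrays, were processed together. Differences between arrays that share such a label are those given for the original and the technical replicate arrays alone.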
